A study of Mus musculus with 5 samples.

Results

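Monocytes of SCLC lung tumours were read from scRNA-seq as barcodes, each standing for 1 captured cell, that held transcripts of a mononuclear phagocyte and of a monocyte and lacked those of a macrophage. Of 86606 barcodes with more than 150 detected genes and a mitochondrial share of at most 20%, 488 met the rule. They were chosen by their own counts of unique molecular identifiers (UMIs): at least 1 UMI of Csf1r and Cybb together, at least 2 over Ccr2, Vcan, Plac8, Ace and Fn1, at most 1 over the complement genes C1qa, C1qb and C1qc, and 0 of Cd3e, Cd79a, Ms4a1, Siglecf and Mcemp1. These 15 genes define the set and are given below as a description only. The tumours arose in C57BL/6 mice, Rb1 fl/fl and Trp53 fl/fl in genotype, of both sexes, after inhalation of adenoviral Cre, which deletes both tumour suppressors in the lung, and grew for about 6 months before therapy. The 5 libraries, 1 for each group, came from lung tumours treated every 3 days with vehicle (phosphate-buffered saline), anti-PD-1 (an antibody against the T cell checkpoint receptor PD-1, 10 mg/kg), ERBB2i (mubritinib, an oral inhibitor of the receptor tyrosine kinase ERBB2, 10 mg/kg), or both agents (combination), and a further library of the same combination is labelled as taken in response. The age at harvest is not stated, and the animals behind the libraries are given only as 4 mice for the treatment groups. With 1 library per group no treatment effect could be tested, treatment and library cannot be told apart, and the intervals below cover counting error only.

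Monocytes are made in the bone marrow and circulate in the blood. Classical monocytes of the mouse carry CCR2, the chemokine receptor by which they leave the marrow and enter inflamed tissue, and high surface Ly6C, and they can become macrophages or dendritic cells. Patrolling, or non-classical, monocytes develop from them under the transcription factor NR4A1, lose CCR2 and Ly6C, and crawl along the endothelium with the help of CX3CR1 and the integrin LFA-1. ACE, angiotensin-converting enzyme, served here to separate them from classical monocytes. Both kinds respond strongly to interferon.

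Monocyte barcodes were few and uneven: 47 of the vehicle library, 18 of anti-PD-1, 102 of ERBB2i, 318 of combination and 3 of combination in response. The split by the rule gave 129 Ccr2-positive barcodes without Ace, 54 Ace-positive barcodes without Ccr2, 20 with both, and 285 with neither. By library, in the order vehicle, anti-PD-1, ERBB2i, combination and combination in response, the Ccr2-positive barcodes were 4, 8, 61, 55 and 1 and the Ace-positive ones 3, 1, 6, 44 and 0. Those with neither were 39, 9, 30, 206 and 1, and carried the threshold on other genes: in combination, 118 of the 206 had Vcan as the only monocyte gene detected.

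**Figure D1:**
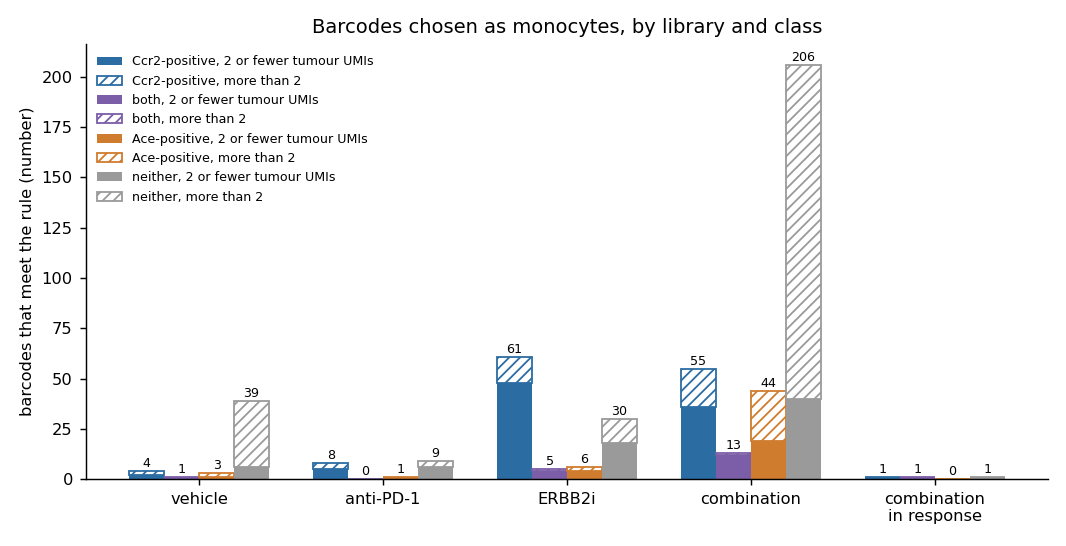
Number of monocyte barcodes per library (y axis, barcodes) in the classes set by Ace and Ccr2. The hatched part of each bar holds barcodes with more than 2 UMIs of 6 neuroendocrine tumour genes; in vehicle and combination the class with neither gene is mostly hatched, 33 of 39 and 166 of 206 barcodes.

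Most Ccr2-positive barcodes of ERBB2i and combination, and part of the Ace-positive ones, held a leukocyte transcript. The monocyte label did not hold for most barcodes with neither gene. These counts do not tell monocytes from dendritic cells or from macrophages low in C1q. More than 2 UMIs over 6 neuroendocrine tumour genes, among them Chga, Insm1, Syp, Ncam1 and Calca, were found in 37 of 47 members of vehicle (78.7%), 6 of 18 of anti-PD-1 (33.3%), 28 of 102 of ERBB2i (27.5%), 211 of 318 of combination (66.4%) and 0 of 3 in response. Among barcodes with neither gene the share was 84.6% in vehicle and 80.6% in combination, and Ptprc (CD45, carried by all leukocytes) had a UMI in only 5 of 39 and 57 of 206 of them. By contrast, Ptprc was detected in 52 of 55 Ccr2-positive barcodes of combination and 56 of 61 of ERBB2i, and in 28 of 44 Ace-positive barcodes of combination. Tumour barcodes, taken as those with at least 5 UMIs of the 6 tumour genes and none of Ptprc, held Vcan themselves, in 37.3% of vehicle, 32.3% of ERBB2i and 26.2% of combination, and Cybb in 6.81% of combination. Barcodes with tumour transcripts may be doublets, free RNA or tumour cells; these were not told apart, and values are therefore also given for the 206 members with at most 2 tumour UMIs, namely 10 of vehicle, 12 of anti-PD-1, 74 of ERBB2i, 107 of combination and 3 in response. Markers of dendritic cells were present as well: Siglech, of plasmacytoid dendritic cells, was detected in 5, 6, 4, 8 and 1 members of the libraries in the order above, and Cd209a, of dendritic cells that resemble monocytes, in 3, 4, 11, 5 and 1. A marker of dendritic cells, taken as any UMI of Siglech, Klk1, Flt3, Xcr1, Clec9a or Cd209a, was present in 12 of 61 Ccr2-positive barcodes of ERBB2i and 7 of 55 of combination, but in 3 of 4 of vehicle, 4 of 8 of anti-PD-1 and the 1 taken in response.

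Just inside the threshold on monocyte genes, with exactly 2 UMIs, were 18 members of vehicle, 4 of anti-PD-1, 15 of ERBB2i, 130 of combination and 1 in response. Just outside it, with 1 UMI, were 25, 7, 47, 397 and 0 barcodes. Library depth differed, with median UMIs per barcode between 1225 in combination in response and 5281 in vehicle. Barcode sequences were 24 bases long in ERBB2i and combination and 27 in the other libraries; up to 782 were shared by a pair of libraries, and 0 among the members.

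The share of barcodes that met the monocyte rule was highest in combination. Of these, 211 of 318 in combination and 37 of 47 in vehicle held more than 2 tumour UMIs. Combination had 1.17% (95% Clopper-Pearson interval, 1.04 to 1.3), followed by vehicle with 0.486% (0.357 to 0.646) and ERBB2i with 0.388% (0.316 to 0.471). The share in anti-PD-1 was 0.135% (0.0801 to 0.213), and combination in response had 0.0297% (0.00612 to 0.0867). Since the rule counts UMIs, each barcode was also thinned to 500 UMIs, which all reached: in the order of the libraries above, from vehicle on, the shares became 0.0724%, 0.0676%, 0.186%, 0.261% and 0.0395%. With at most 2 tumour UMIs they were 0.103%, 0.0901%, 0.281%, 0.393% and 0.0297% in that order. Combination stayed highest and ERBB2i came next in both, but their intervals then overlapped (0.204 to 0.329 against 0.138 to 0.246 when thinned, 0.322 to 0.475 against 0.221 to 0.353 with the tumour limit). The tumour cells of the libraries enter the denominator, so fewer monocytes and more of other cells cannot be told apart.

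Among barcodes split by Ace and Ccr2, those with Ace were 44 of 99 in combination (44.4%, 34.5 to 54.8) and 6 of 67 in ERBB2i (8.96%, 3.36 to 18.5). Vehicle held 3 of 7, anti-PD-1 held 1 of 9 and combination in response 0 of 1, too few for a narrow interval (9.9 to 81.6 in vehicle, 0.281 to 48.2 in anti-PD-1). With at most 2 tumour UMIs, combination held 19 of 55 (34.5%, 22.2 to 48.6) and ERBB2i 4 of 52 (7.69%, 2.14 to 18.5), and with thinned barcodes 9 of 37 (24.3%, 11.8 to 41.2) and 1 of 23 (4.35%, 0.11 to 21.9). The intervals of combination and ERBB2i were apart at the deposited depth and overlapped after thinning. In both libraries Ace also had UMIs in tumour barcodes, 2.23% of them in combination, against 0.387% for Ccr2.

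The classes differed in genes the rule had not used, and along the lines of classical and patrolling monocytes. Genes that go with Ccr2 or Ace in single cells had to differ between classes split on Ccr2 and Ace. The differences therefore describe the classes and are no independent support for their names. In combination, among barcodes with at most 2 tumour UMIs, Ly6c2, which encodes the Ly6C antigen (chr15:75108161-75112066, mm10), was detected in 26 of 36 Ccr2-positive and 0 of 19 Ace-positive barcodes. Ms4a4c was detected in 28 and 3, and F13a1, coagulation factor XIII of classical monocytes, in 18 and 0. In the opposite direction, Ear2, an eosinophil-associated ribonuclease (chr14:44102654-44103531), was detected in 1 Ccr2-positive and 12 Ace-positive barcodes, Adgre4, an adhesion receptor, in 3 and 10, and Eno3, a muscle-type enolase, in 0 and 7. In the Ccr2-positive barcodes of ERBB2i, Ly6c2 was detected in 21 of 48, Ms4a4c in 29, F13a1 in 18 and Ear2 in 0. Ly6c2, Ms4a4c and F13a1 were each in a smaller share of them than in combination. In the tumour barcodes of combination, which should lack it, Ly6c2 had a UMI in 1.35%, at a median of 3259 UMIs per barcode against 2136 in the Ccr2-positive class. The 13 barcodes of combination with both genes lay between the classes, with Ly6c2 in 7, Ms4a4c in 8, Adgre4 in 6 and Ear2 in 2.

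**Figure D2:**
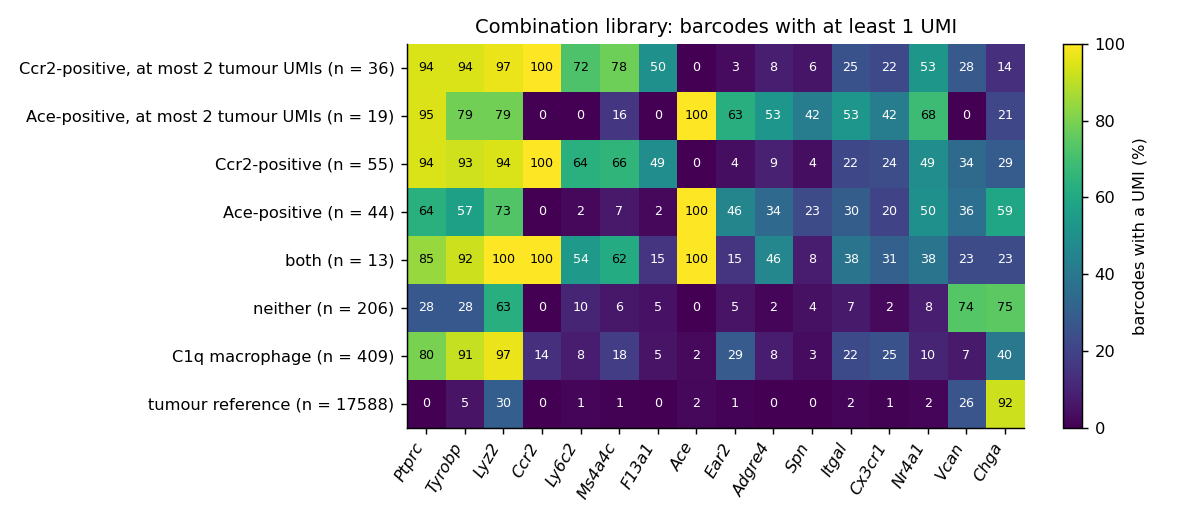
Heat map of the percentage of barcodes of the combination library with at least 1 UMI of each gene (columns) in each class (rows, with the number of barcodes). With at most 2 tumour UMIs, Ly6c2, F13a1 and Ms4a4c are high in the Ccr2-positive row and Ear2 and Adgre4 in the Ace-positive row, Nr4a1 and Cx3cr1 are detected in both, and the row with neither gene holds Vcan and Chga as tumour barcodes do.

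Summed UMIs of these classes were compared as counts per 1e+06 UMIs (CPM). A gene was counted as past the fold where it differed at least 2-fold and the exact 95% interval of the log2 ratio excluded 0; no p-value was computed because only combination held 10 or more barcodes of both classes. Of 925 genes with at least 20 UMIs, 85 were higher in Ace-positive barcodes (9.19%) and 102 lower (11.0%), with a median log2 ratio of -0.14. Of 15 classical core genes, 12 were compared, and 1 was higher and 6 lower, with a median log2 ratio of -1.56. Of 20 patrolling core genes, 10 were compared, and 4 were higher and 1 lower, with a median of 0.55. With tumour transcripts allowed, 3520 genes were compared, of which 411 were higher (11.7%) and 356 lower (10.1%). Of 14 classical genes 1 was then higher and 11 lower (median -2.41), while 5 of 8 cell cycle genes were higher in the Ace-positive class (median 1.77) and 0 of 8 could be compared once barcodes with more than 2 tumour UMIs were left out.

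Among the classical genes, Ly6c2 had 265 UMIs, 3947 CPM, in the Ccr2-positive class and 0 in the Ace-positive class, a log2 ratio of at most -5.58 with the floor of 3 counts. Ms4a4c had 130 against 4 UMIs (log2 ratio -4.13, -6.03 to -2.74), and F13a1 46 against 0 (at most -3.05). S100a4 and S100a6, calcium-binding proteins of motile myeloid cells, were lower, with log2 ratios of -2.19 and -2.15. The exception was Chil3, a chitinase-like lectin, which was higher in the Ace-positive class at 118 against 30 UMIs (2.87, 2.28 to 3.49), with 74 of the 118 UMIs in 1 barcode. Lyz2, lysozyme, was abundant in both, 10759.8 CPM in the Ace-positive and 20972 CPM in the Ccr2-positive class (-0.96, -1.13 to -0.80).

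Among the patrolling genes, Ear2 had 28 UMIs in 12 Ace-positive barcodes and 1 UMI in the Ccr2-positive class (log2 ratio 5.70, 3.10 to 11.05). Adgre4 had 17 against 3 UMIs (3.39, 1.60 to 5.80), Gngt2, a G protein subunit, 50 against 32 (1.53, 0.86 to 2.22), and Itgal, the LFA-1 alpha chain, 16 against 11 in the smaller class (1.43, 0.23 to 2.68). The regulator that gives patrolling monocytes their identity did not differ past the fold: Nr4a1 had 28 UMIs in 13 of 19 Ace-positive barcodes and 38 in 19 of 36 Ccr2-positive ones, a log2 ratio of 0.45 (-0.31 to 1.19). Cx3cr1, the fractalkine receptor, had a ratio of 0.65 (-0.65 to 1.92) and Pou2f2 one of 0.08 (-1.38 to 1.43). Clec4a1, a C-type lectin, was lower in the Ace-positive class at 3 against 20 UMIs (-1.85, -4.24 to -0.09).

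The interferon response list was lower in the Ace-positive barcodes of combination: of 15 genes compared, 8 were lower and 0 higher, with a median of -1.40. Irf7, the regulator that amplifies type I interferon, had 6 UMIs against 55 in the Ccr2-positive class (log2 ratio -2.31, -3.81 to -1.09), Isg15, a ubiquitin-like protein, 16 against 78 (-1.40, -2.27 to -0.61) and Ifi27l2a 9 against 141 (-3.08, -4.24 to -2.11). The genes furthest apart by size outside the lists included Samd9l, Ifi209, Maf and Wfdc17 on the low side and Id2, Cdkn2a, Smc4, Lipa and Mtpn on the high side. Of these, Id2, an inhibitor of bHLH factors, had 23 UMIs in 7 Ace-positive barcodes and 5 in the Ccr2-positive class (3.09, 1.66 to 4.84), while 17 of the 21 Smc4 UMIs lay in 1 barcode. Of 5 MHC class I genes compared 0 passed the fold (median 0.30), and of 7 MHC class II and co-stimulation genes 1 was lower and 0 higher (median -0.02). With tumour transcripts allowed, 7 of 8 of the latter were lower (median -1.61). Cd74, the invariant chain of MHC class II, stood at 11670.3 CPM in Ace-positive and 11573 CPM in Ccr2-positive barcodes with at most 2 tumour UMIs.

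Markers of other cell types were present in both classes and differed between them. In the 19 Ace-positive barcodes, the alveolar macrophage list, of which 2 of 9 genes were at 0, summed to 4166 CPM against 492 CPM in the Ccr2-positive class; Marco had 13 UMIs in 2 barcodes, Ear1 7 in 4, and Car4 none. The neutrophil list summed to 1462 against 209 CPM, with 27 of the 33 S100a8 UMIs in 1 barcode, and haemoglobin transcripts of the erythroid list to 31589.7 against 0 CPM, in 2 barcodes. The endothelial list summed to 276 CPM (10 UMIs) in the Ace-positive class and 164 CPM (11 UMIs) in the Ccr2-positive class. Siglecf is 0 by the rule. Ear2 was also detected in 117 of 409 C1q macrophages of this library. Other lists were higher in the Ccr2-positive class: plasmacytoid dendritic cell markers summed to 1787 CPM there, with 0 of 7 genes at 0, against 248 CPM in the Ace-positive class, with 4 at 0, and both of those compared passed the fold (median log2 ratio -2.23). Bst2 is on this list and on the interferon list, so these lists overlap. It had 50 UMIs in the Ccr2-positive class without the barcode highest for interferon genes, beside 120 for the plasmacytoid list in the full class. C1q macrophage markers summed to 5600.5 CPM in the Ccr2-positive class against 2621 CPM. The part of these cells in the differences above, those of the interferon genes and Irf7 included, was not tested; Ear2, Adgre4, Itgal and Gngt2 were spread over 10 to 14 of the 19 barcodes.

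In ERBB2i, only 6 Ace-positive barcodes were available. There, Ly6c2 had 1 UMI against 223 in the 61 Ccr2-positive barcodes (log2 ratio -4.66, -9.97 to -2.16), Ms4a4c 3 against 113 (-2.09, -4.39 to -0.51), and Itgal 8 against 23 (1.62, 0.25 to 2.83). Adgre4 had 6 UMIs, all in 1 barcode. A fit of both libraries with library as block, added after the data had been seen and with 5 or more barcodes per class, took all members, including the 25 of 44 Ace-positive barcodes of combination with more than 2 tumour UMIs, and gave 3778 genes tested, of which 20 were higher in the Ace-positive class at an adjusted p under 0.05 (0.529%) and 104 lower (2.75%). Ly6c2 fell (log2 difference -7.16, SE 0.61, adjusted p = 1.2e-27), as did Ms4a4c (-4.55, SE 0.62, adjusted p = 3.8e-10), F13a1 (-3.52, SE 0.78, adjusted p = 0.00087), S100a4 (-2.60, SE 0.60, adjusted p = 0.0013), Isg15 (-2.59, SE 0.65, adjusted p = 0.0053) and Irf7 (-2.79, SE 0.73, adjusted p = 0.0084). Of 14 classical genes tested 10 were lower and 0 higher (median -2.24, against -0.01 over all genes), of 12 interferon genes 7 were lower and 0 higher (median -1.95), of 8 MHC class II and co-stimulation genes 7 were lower and 0 higher (median -1.59), and of 12 patrolling genes 0 were called in either direction (median 0.41). Among barcodes of combination with at most 2 tumour UMIs, 1 of 7 MHC class II and co-stimulation genes compared was past the fold, lower, and the median log2 ratio was -0.02. Genes common to myeloid cells fell in the fit too. Of 12 Fc and pattern receptor genes 5 were lower and 0 higher (median -1.56), with Tyrobp and Fcer1g at -1.56 each. The part of tumour transcripts in the lower values of this fit, those of classical and interferon genes included, was not tested. The genes called higher included Wfdc2, Resp18, Cadps2 and Stmn1, transcripts of tumour or dividing cells. Since the split used Ccr2 and Ace, the adjusted p-values of genes that go with either are descriptive only. Nr4a1 (log2 difference -0.36, SE 0.45, adjusted p = 0.94), Cx3cr1 (-1.43, SE 0.79, adjusted p = 0.51) and Adgre4 (1.67, SE 0.71, adjusted p = 0.26) did not pass.

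Monocytes were next set against C1q macrophages, chosen by at least 4 UMIs of the C1q genes under the same gates; 720 barcodes qualified, 100, 24, 177, 409 and 10 by library. Genes that go with C1q in single cells had to differ between classes gated on C1q, and the 15 rule genes were left out of the test. Monocytes also had to hold at least 2 UMIs over Ccr2, Vcan, Plac8, Ace and Fn1, which macrophages did not. Genes that go with these were thereby favoured on the monocyte side. Among members with at most 2 tumour UMIs, edgeR over the 4 libraries with at least 10 barcodes of each class, with library as block, called 140 of 3258 genes higher in monocytes (4.30%) and 227 lower (6.97%). Over all members, 507 of 7626 genes were higher (6.65%) and 714 lower (9.36%), with 5 of 9 neuroendocrine genes and 5 of 8 cell cycle genes among those higher, and 2 of 14 classical genes higher and 2 lower. The genes furthest apart on the monocyte side of that fit included Siglech, Ly6d, Klk1, Cd7, Upb1, Bcl11a, Cox6a2, Zik1 and Wscd1, and on the macrophage side Fcrls, Cd5l, Mmp13, Saa3, Slc40a1, Dnase1l3, Olfml3, Vcam1, Ms4a7 and Il18bp. With only Ace- or Ccr2-positive barcodes with at most 2 tumour UMIs, in 3 libraries with at least 5 of each class, 98 of 2505 genes were higher (3.91%) and 166 lower (6.63%).

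The classical core stood above macrophages, a direction that the gate on monocyte genes favoured. With at most 2 tumour UMIs, 7 of 14 genes tested were higher and 1 lower, with a median log2 difference of 1.54, against 0.03 over all genes. Ifitm6, an interferon-induced membrane protein of myeloid cells, had 15, 12, 70 and 91 UMIs in the 10, 12, 74 and 107 monocytes of vehicle, anti-PD-1, ERBB2i and combination, and 31, 2, 3 and 20 in their macrophages, which were more numerous. Per UMI the monocytes were higher in each library, with a log2 difference of 4.01 (SE 0.46, adjusted p = 6.6e-05). Higher too were Itgb7, an integrin beta chain, by 3.70 (SE 0.44, adjusted p = 9.1e-05), Hp, haptoglobin, by 2.83 (SE 0.52, adjusted p = 0.0028) and S100a4 by 2.27 (SE 0.58, adjusted p = 0.034). Over all members Itgb7 kept its call, whereas Ifitm6 (log2 difference 2.37, SE 0.86, adjusted p = 0.089), Hp (1.38, SE 0.87, adjusted p = 0.3) and S100a4 (0.60, SE 0.73, adjusted p = 0.61) did not pass. In the fit over Ace- or Ccr2-positive barcodes, 8 of 14 classical genes were higher and 0 lower, with a median of 1.92. The patrolling core split, with 3 of 15 genes higher and 4 lower in either fit.

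On the low side were genes of resident macrophages. Vcam1, an adhesion molecule of tissue macrophages and endothelium, had 0 UMIs in the members with at most 2 tumour UMIs of all 4 libraries, and 566, 14, 584 and 670 UMIs in the macrophages. Slc40a1, the iron exporter ferroportin, had 1, 0, 0 and 1 UMIs against 296, 9, 312 and 351 (log2 difference -6.56, SE 0.57, adjusted p = 5e-06). Ms4a7 had 1, 5, 4 and 10 against 724, 94, 821 and 1693 (-5.17, SE 0.34, adjusted p = 7.4e-07), and Igf1, the growth factor, 2, 0, 0 and 3 against 312, 11, 177 and 472 (-5.22, SE 0.51, adjusted p = 2.1e-05). Of 9 MHC class II and co-stimulation genes tested, 6 were lower in monocytes and 0 higher (median -0.69), and of 15 Fc and pattern receptor genes 6 were lower and 0 higher (median -0.95). Of 9 C1q macrophage markers tested, 7 were lower (median -2.82).

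Some genes that led the monocyte side belong to plasmacytoid dendritic cells. Siglech had 57, 15, 46 and 58 UMIs in the monocytes of vehicle, anti-PD-1, ERBB2i and combination with at most 2 tumour UMIs, and 0, 0, 0 and 4 in the macrophages (log2 difference 7.76, SE 0.58, adjusted p = 1.6e-06). Klk1, Ly6d, Cd7 and Bcl11a stood beside it, and 4 of 5 plasmacytoid dendritic cell genes tested were higher. In the fit over Ace- or Ccr2-positive barcodes only 2 of these 7 genes could be tested and 0 were called, and there Ifitm6 (4.82, SE 0.41, adjusted p = 5.9e-05), Napsa, an aspartic protease (2.93, SE 0.32, adjusted p = 0.0003), and Lsp1, an actin-binding protein of leukocytes (2.84, SE 0.28, adjusted p = 0.00013), stood among the leading genes with Itgb7, Hp and S100a4.

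**Figure D3:**
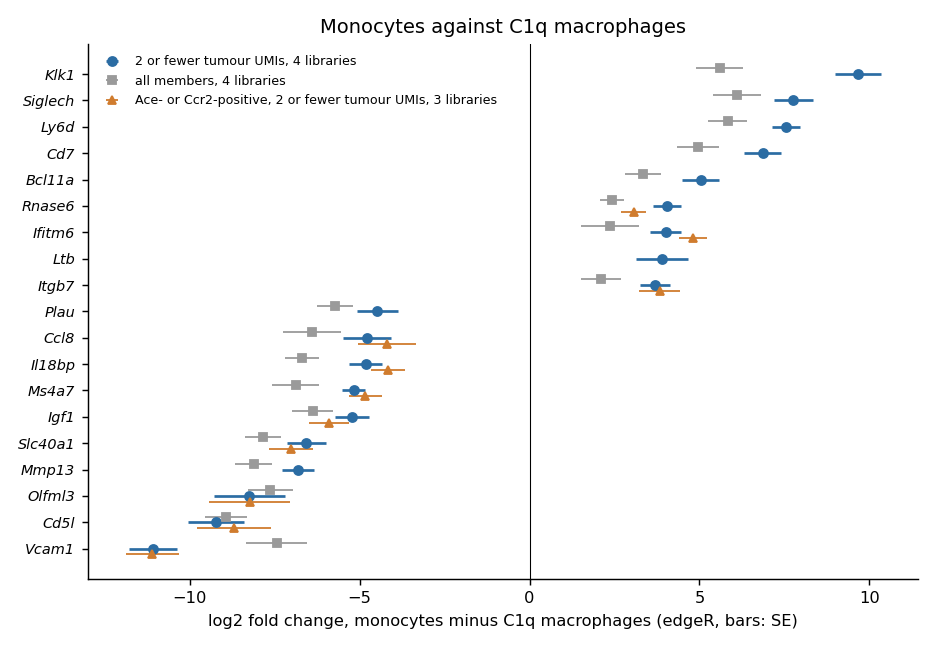
Log2 difference between monocytes and C1q macrophages, with bars for 1 SE, in the fit with at most 2 tumour UMIs (blue, 4 libraries), over all members (grey) and over Ace- or Ccr2-positive barcodes with at most 2 tumour UMIs (orange, 3 libraries). Ifitm6 lies at 4.01 and Ms4a7 at -5.17 in the first; the positions of genes with 0 UMIs on 1 side in every library, such as Vcam1 and Klk1, depend on the prior count of the fit and are no bounds.

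Between treatments, all members were compared only where a library held at least 20 of them, which left out anti-PD-1 and combination in response. Of 3698 genes, 503 were higher (13.6%) and 893 lower (24.1%) in ERBB2i than in vehicle; of 7169, 607 were higher (8.47%) and 326 lower (4.55%) in combination than in vehicle; and of 6862, 687 were higher (10.0%) and 595 lower (8.67%) in combination than in ERBB2i. The first 2 comparisons share the vehicle library. Tumour transcripts in the members differed between these libraries as given above, and their part in these counts was not tested. Wfdc2, an epithelial secreted protein, stood at 316, 30.8 and 1306 CPM in vehicle, ERBB2i and combination, and Hoxb9, a homeobox gene, at 509.5, 30.8 and 126 CPM. Il1b, the inflammasome cytokine, was highest in ERBB2i, at 48.9, 1093 and 124 CPM in that order, as was S100a4, at 16.3, 356 and 125 CPM. Spp1, osteopontin, was highest in combination at 668 CPM against 11.6 CPM in vehicle, with 209 of its 842 UMIs in 1 barcode.

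A comparison less exposed to tumour transcripts was therefore made between the Ccr2-positive barcodes of combination and ERBB2i, the pair with the same barcode length; it was chosen after the data had been seen. With at most 2 tumour UMIs, 36 barcodes of combination and 48 of ERBB2i gave 1771 genes with at least 20 UMIs, of which 86 were higher (4.86%) and 94 lower (5.31%) in combination, around a median log2 ratio of 0.03. The interferon response list stood out from this: of 15 genes compared 8 were higher and 1 lower, with a median of 1.20. Without the tumour limit, 159 of 3436 genes were higher (4.63%) and 155 lower (4.51%), and the list gave 8 higher and 1 lower of 18 (median 0.78). When barcodes with a dendritic cell marker were left out too, leaving 32 and 40, 85 of 1361 genes were higher (6.25%) and 75 lower (5.51%), and the list gave 9 higher and 0 lower of 14 (median 2.00). Over all members the direction was the opposite, with 0 of 18 interferon genes higher and 8 lower in combination (median -0.89), beside 7 of 9 neuroendocrine genes higher.

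Isg15 had 78 UMIs (1162 CPM) in 13 of 36 barcodes of combination and 24 (215 CPM) in 12 of 48 of ERBB2i, a log2 ratio of 2.43 (1.76 to 3.16), with 40 of the 78 in 1 barcode. Irf7 had 55 UMIs in 17 barcodes and 23 in 14 (1.99, 1.27 to 2.76), and Oasl2, of the oligoadenylate synthetase family, 32 in 16 and 12 in 7 (2.15, 1.15 to 3.24). Ifit3, which binds foreign RNA with its relatives, had 24 UMIs in 6 barcodes and 1 in 1 (5.32, 2.70 to 10.68), Ifit2 34 and 11 (2.36, 1.35 to 3.49), Rsad2, viperin, 18 and 6 (2.32, 0.92 to 3.94) and Gbp2, a guanylate-binding protein, 18 and 5 (2.58, 1.10 to 4.37). Ifi27l2a was higher by 1.20 (0.82 to 1.58). The exception was Ifitm1, at 5 against 51 UMIs (-2.62, -4.30 to -1.30), 43 of which lay in 1 barcode of ERBB2i. Outside the list, the chemokine Cxcl10 had 25 UMIs in 6 barcodes against 4 in 1 (3.38, 1.84 to 5.36), and Ifi205 35 against 6 (3.28, 2.01 to 4.82).

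The list's sum per barcode overlapped widely between the libraries: its median was 8467 CPM in ERBB2i (quartiles 4366 and 11631) and 13706 CPM in combination (8595 and 21279), with highest values of 27665 and 69478 CPM. The barcode with most interferon UMIs held 15.1% of those of combination and 11.4% of those of ERBB2i. Without that barcode in each library, 68 of 1696 genes were higher (4.01%) and 88 lower (5.19%), and of 11 interferon genes compared 5 were higher and 0 lower, with a median of 0.88. Isg15 then stood at 1.51 (0.72 to 2.34), Oasl2 at 2.02 (0.96 to 3.18), Irf7 at 1.72 (0.87 to 2.63) and Ifit2 at 2.50 (1.24 to 3.96).

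**Figure D4:**
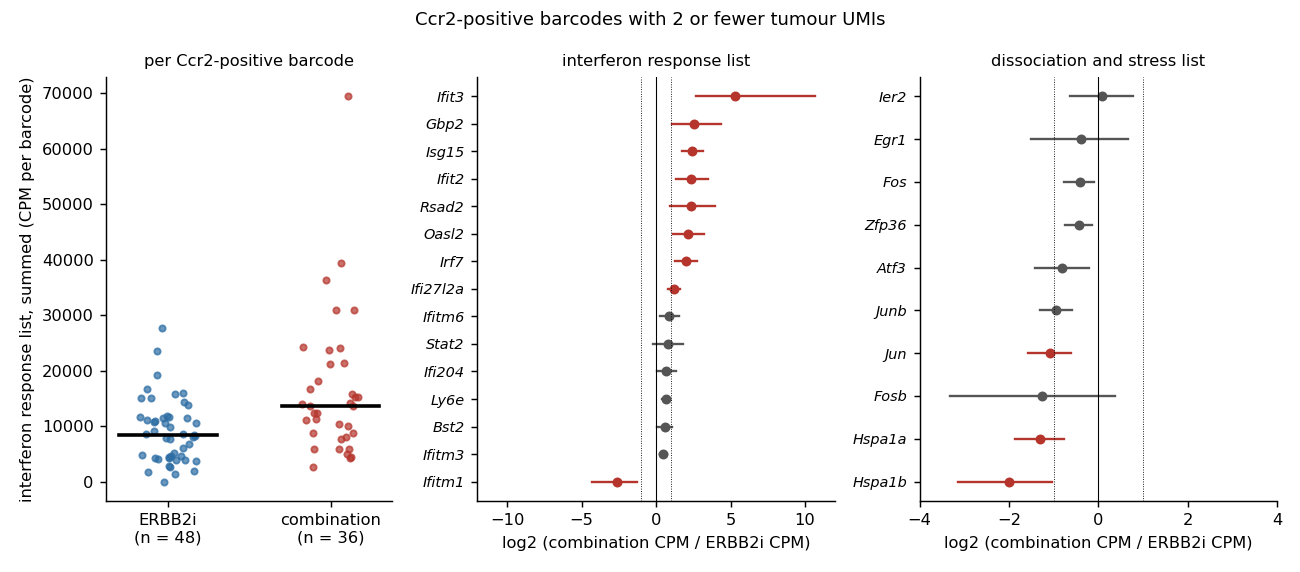
Left, the summed interferon response list in each Ccr2-positive barcode with at most 2 tumour UMIs (points, CPM; lines, medians of 8467 and 13706); middle and right, log2 ratios of CPM, combination over ERBB2i, for interferon and stress genes with 95% counting intervals, red where past 2-fold with an interval off 0. Of 15 interferon genes 8 are red on the high side and 1, Ifitm1, on the low side, and 3 stress genes are red on the low side.

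Interferon genes were higher in other cells of the combination library too. In C1q macrophages with at most 2 tumour UMIs, where 414 of 7832 genes were higher (5.29%) and 402 lower (5.13%), 10 of 22 interferon genes were higher and 1 lower (median 0.98). In tumour barcodes, where 1976 of 17631 genes were higher (11.2%) and 2779 lower (15.8%), 12 of 22 were higher and 1 lower (median 1.06). Isg15 was higher by 1.35 (1.02 to 1.70) in the macrophages and 2.15 (1.77 to 2.54) in tumour barcodes, where its level was 6.60 against 1.49 CPM. Ifit3 was higher by 1.05 (0.53 to 1.59) in the macrophages and had a ratio of 0.09 (-0.38 to 0.58) in tumour barcodes, and Ifit2 was higher by 1.99 (1.49 to 2.53) in the macrophages and lower in tumour barcodes (-1.03, -1.13 to -0.93). In the 5 Ccr2-positive barcodes of anti-PD-1, Isg15 stood at 972 CPM (576 to 1536) and Irf7 at 1404 CPM (917 to 2057), and these intervals overlapped those of combination, whose Isg15 was 1162 CPM (918 to 1450) and Irf7 819 CPM (617 to 1066). The 2 such barcodes of vehicle and the 1 taken in response all carried a dendritic cell marker, as did 2 of the 5 of anti-PD-1. The libraries of vehicle and of combination in response had 0 UMIs of Isg15 in them, which allows up to 379.8 and 685 CPM of Isg15.

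Classical genes were also higher in the Ccr2-positive barcodes of combination, 4 of 13 compared against 1 lower (median 0.37). Ly6c2 was at 3947 CPM against 1648 CPM in ERBB2i (log2 ratio 1.26, 0.98 to 1.54), and at 2279, 1998 and 2968 CPM in the 2 barcodes of vehicle, the 5 of anti-PD-1 and the 1 taken in response, of which 2, 2 and 1 carried a dendritic cell marker. Ms4a4c was higher by 1.67 (1.23 to 2.11), F13a1 by 1.26 (0.57 to 1.96) and Chil3 by 1.83 (0.87 to 2.86). Chil3 was also at 28.6 against 0.181 CPM in the tumour barcodes of these libraries and at 384 against 3.90 CPM in their C1q macrophages. The receptor Cd14, which binds lipopolysaccharide, was lower at 15 against 128 UMIs (-2.36, -3.24 to -1.58), with 46 of the 128 in 1 barcode of ERBB2i. Over all members, classical genes went the other way between these libraries, with 1 of 14 higher and 10 lower (median -1.47).

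MHC class I presentation, whose level in tumour cells the study addressed, gave 2 of 7 genes compared higher and 1 lower in these monocytes (median log2 ratio 0.20). B2m, the invariant subunit, stood at 3843 CPM in combination and 3350.4 CPM in ERBB2i (log2 ratio 0.20, -0.04 to 0.43), H2-K1 at 1698 and 1353 CPM (0.33, -0.04 to 0.69) and H2-D1 at 3292 and 3682 CPM (-0.16, -0.40 to 0.08). Psmb8, of the immunoproteasome, was higher by 1.11 (0.51 to 1.71) and Tapbp, tapasin, by 1.38 (0.42 to 2.38). H2-T23, a non-classical MHC class I gene that presents to NK cell receptors (chr17:36029977-36032701), was lower (-2.70, -4.20 to -1.5), at 6 UMIs in 5 barcodes against 65 in 29. It was lower in that library in macrophages (-1.76, -2.13 to -1.40) and tumour barcodes (-1.99, -2.15 to -1.83) alike, and the Ccr2-positive barcodes of vehicle had 886 CPM of it, those of anti-PD-1 540.0 and the 1 taken in response 913, against 89.4 CPM in combination. The dendritic cell markers in 2 of 2, 2 of 5 and 1 of 1 of these reference barcodes apply here too. Of 8 MHC class II and co-stimulation genes 0 were higher and 1 lower, H2-Eb1 (-1.10, -1.43 to -0.78).

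Of 10 dissociation and stress genes compared, 0 were higher in combination than in ERBB2i and 3 lower (median -0.87): Hspa1b, an inducible heat shock protein, had 10 UMIs against 67 (-2.01, -3.14 to -1.04), Hspa1a 36 against 148 (-1.31, -1.87 to -0.77), and Jun 49 against 173 (-1.09, -1.57 to -0.62). In the macrophages 8 of 11 such genes were lower (median -1.11), and in tumour barcodes 2 of 11 were higher and 2 lower (median 0.20). Of 13 cytokine and chemokine genes 2 were higher and 5 lower (median -0.74); without the barcode of each library with most UMIs of that list, which held 29.8% of those of ERBB2i, 2 of 9 were higher and 2 lower (median -0.37). Il1b was lower at 30 against 168 UMIs (-1.75, -2.36 to -1.19) and Ptgs2, cyclooxygenase 2, at 1 against 19. Cxcr4, a receptor for retention in the marrow, had 0 UMIs against 25 in 15 of 48 barcodes of ERBB2i (at most -2.33). The chemokine Cxcl2 was carried by 1 barcode of ERBB2i, with 103 of 109 UMIs. The neuronal transcripts Nnat (4 against 83 UMIs), Nrxn3 (0 against 45) and Cacna2d1 (1 against 24) were lower too; they are expressed by the tumour, and their part in other differences was not tested.

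Promoters were read for the genes of the interferon list. In RefSeq promoters (GRCm38.p6, from 250 bases before to 50 after the start), the core of the interferon-stimulated response element, made of GAAA, any 2 bases and GAAA again on either strand, a motif chosen after the data had been seen, was found in 13 of 21 promoters of 19 list genes (61.9%), against 3.44% of 32851 promoters of all genes. Of the 8 list genes that were higher in the Ccr2-positive barcodes of combination, 7 had a promoter in the table and 4 held the core. These 4 are shown as the 150 bases before the start, 5′ to 3′ on the strand of the gene, with the core in capitals (read as TTTC, 2 bases and TTTC where it lies on the other strand); in Isg15 the capitals are 3 overlapping matches, and 0 of the matches overlap another motif searched.
Gbp2 (chr3:142620513-142620662, plus strand): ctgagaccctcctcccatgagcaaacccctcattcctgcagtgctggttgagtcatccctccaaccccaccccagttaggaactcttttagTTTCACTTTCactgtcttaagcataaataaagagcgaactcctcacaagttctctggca
Isg15 (chr4:156200819-156200968, minus strand): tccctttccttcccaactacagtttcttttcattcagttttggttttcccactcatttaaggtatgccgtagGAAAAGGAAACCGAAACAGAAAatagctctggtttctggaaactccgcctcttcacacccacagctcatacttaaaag
Rsad2 (chr12:26456453-26456602, minus strand): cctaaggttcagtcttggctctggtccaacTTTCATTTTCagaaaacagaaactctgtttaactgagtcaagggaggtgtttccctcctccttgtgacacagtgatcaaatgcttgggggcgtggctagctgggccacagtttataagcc
Ifit3 (chr19:34583379-34583528, plus strand): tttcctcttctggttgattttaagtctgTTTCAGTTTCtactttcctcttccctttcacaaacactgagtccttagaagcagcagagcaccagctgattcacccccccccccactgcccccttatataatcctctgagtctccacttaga
The cores end 49 bases before the start in Gbp2, 56 in Isg15, 110 in Rsad2 and 112 in Ifit3. The promoters of Irf7, Oasl2 and Ifit2 did not hold these letters in the window. The genes searched next came from the fit over all members, with tumour transcripts allowed. The 6 higher in monocytes were Bcl11a, Klk1, Siglech, Upb1, Wscd1 and Zik1. Siglech and Klk1 are plasmacytoid dendritic cell markers, and none of the 6 is on the classical or patrolling list. Their motifs are therefore no property of monocytes. Motifs set for the genes that distinguished monocytes from macrophages over all members were searched as well: the NR4A element AAAGGTCA was in 0 of 8 promoters of 6 genes higher in monocytes and 0 of 8 of 7 genes lower (1.51% of all promoters), the C/EBP element TTGCNNAA in 1 and 2 (10.8%), the KLF element CACCC in 8 and 5 (57.5%) and the PU.1 element GAGGAAG in 1 and 2 (13.6%), on either strand.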

How the data were processed

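Single cells of the lung tumours were captured on a Singleron chip, and the authors deposited UMI counts per gene and barcode for each library. The paper's methods name CeleScope as the pipeline, whereas the submitters' processing notes name Cell Ranger, Scanpy and the mm10 build. Versions are not stated. Tumours came from 5 libraries, 1 per group, so no group has a replicate. Members and gene lists were chosen with earlier results of these data known. The deposited counts were summed over members of a class and expressed as CPM. Libraries were compared by log2 ratios of CPM with exact conditional 95% intervals, using genes with at least 20 UMIs over both classes. For all members, genes needed at least 30 UMIs in 1 library and at least 5 in the other. A floor of 3 counts was used where 1 side was at 0. Shares had Clopper-Pearson intervals. Classes within libraries were compared with edgeR 4.0.16 (quasi-likelihood test, TMM, filterByExpr, library as block, Benjamini-Hochberg adjustment over all genes tested, 0.05), with DESeq2 1.42.0 as an alternative, in R 4.3.3. Doublets were scored with Scrublet in Scanpy 1.11.5 and kept, and leaving out those above 0.25 was an alternative. Named genes were the 10 of largest size in each direction past the threshold and in the same direction in every library (5 in each direction between libraries), plus members of the lists, leaving out rule genes, sex-linked genes and those of mitochondria, ribosomal proteins, haemoglobins, immunoglobulins and T cell receptors. Results of some genes are not reported here. Scripts were tested on simulated data. RefSeq names and promoters (GRCm38.p6) matched 26518 of 32589 genes by symbol. NumPy 2.4.6, SciPy 1.17.1 and pandas 2.3.3 were used. The intervals cover counting error only.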

Additional observations from a re-analysis of the deposited data

How the results depend on the processing

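Classes were compared within libraries, with library as block. Treatments could not be paired because each group holds 1 library. Of 107 results of comparisons recomputed under another setting, 82 stayed close to the main value and 25 moved. Close meant within a fixed fold for numbers of genes, and within the counting interval for shares. There is no replicate spread to set them against. Of 581 gene results that could be recomputed, 573 kept their call, 8 lost it and 0 changed direction. Genes no longer tested or compared under a setting are not among the 581. The genes followed were those named for the size of their difference, so these counts do not describe genes in general. For monocytes against C1q macrophages, 1221 genes were called. The count was 2458 without the filter on low counts, 684 with at least 3 UMIs of monocyte genes, 367 with at most 2 tumour UMIs, 599 with at least 20 cells per class, 625 with Ace- or Ccr2-positive barcodes only and at least 5 cells per class, 264 with these and at most 2 tumour UMIs in 3 libraries, and between 175 and 1525 when a library was left out: 175 without combination, 599 without anti-PD-1, 920 without vehicle and 1525 without ERBB2i. DESeq2 called 1400. For Ace-positive over Ccr2-positive barcodes of combination, 767 genes passed the fold, 415 with 3 UMIs of monocyte genes and 187 with at most 2 tumour UMIs. With 3 UMIs, the share of barcodes that met the monocyte rule was 0.3% in vehicle and 0.691% in combination. The Ace share was then 0% in anti-PD-1 and 30.7% in combination. With at most 2 tumour UMIs, monocytes were 0.103% in vehicle, 0.281% in ERBB2i and 0.393% in combination. Thinned to 500 UMIs, combination held 0.261%, ERBB2i 0.186%, vehicle 0.0724% and anti-PD-1 0.0676%, with an Ace share of 0% in anti-PD-1 and 24.3% in combination. For combination over ERBB2i, 1282 genes passed over all members and 153 with at most 2 tumour UMIs; for Ccr2-positive barcodes 180 passed with at most 2 tumour UMIs and 314 without that limit. The cause of these moves was not tested. The settings on tumour UMIs, dendritic markers and classes were chosen after seeing the data. Comparisons with vehicle at most 2 tumour UMIs were not made, since 10 members were left, and other settings of the Ace and Ccr2 fit were not run, since that fit as designed had 1 library. With 1 library per group, depth and cell number limit every treatment comparison.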
